A study of Homo sapiens with 8 samples.

Results

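The genes described here are those of the ATF4 program and of amino acid supply. The list held 37 genes given by name, and 36 of them were measured among 19775 genes in all. Each gene was read by 1 probe set, the brightest over the 8 arrays among those annotated to a single symbol. GPT2, a glutamate-pyruvate transaminase, is not analysed here. The 36 genes were 10 transcription factors and stress regulators, 6 serine and one-carbon enzymes, 9 transporters, 7 other enzymes of amino acid metabolism, 3 genes of tRNA charging and export, and the lipoprotein receptor VLDLR.

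The cells were MDA-MB-453, an established human breast cancer line. All cultures spent 3 days without phenol red in 5% serum stripped of steroids by charcoal and dextran. They then received either vehicle, or the androgen 5α-dihydrotestosterone (DHT) at 10 nM. DHT was given for 4, 16 or 48 h, and RNA of 2 biological replicates in each of 4 groups was read on 8 arrays. No time is labelled for the vehicle arrays, and the 3 comparisons with vehicle share them, so a change with DHT cannot be told apart from one with time in culture. Nothing in the labels says whether the replicates were cultured apart in time, and precision is limited by having 2 arrays a group. These are bulk samples of 1 cell line, in which fewer cells of a kind and less RNA per cell cannot be told apart.

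ATF4 is a basic leucine zipper transcription factor. Its protein is made in larger amounts when kinases that sense amino acid shortage, unfolded protein in the endoplasmic reticulum, viral RNA or lack of heme phosphorylate the initiation factor eIF2, and its mRNA need not move for its activity to do so. With C/EBP partners it binds C/EBP-ATF response elements and switches on genes that import, make and charge amino acids, among them asparagine synthetase, the serine pathway, the amino acid exchangers of the SLC7 and SLC3 families and the tRNA synthetases. The same program includes stress regulators such as DDIT3, TRIB3 and CHAC1.

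The letters searched for in promoters were TGATGNAA, a core form of the C/EBP-ATF response element, on both strands. The windows were those of RefSeq on GRCh38.p14, from 250 bases before to 50 bases after each annotated start, and 30 of the 36 genes had an entry. ASNS, PHGDH and VLDLR are shown first, since they had the largest called rises, from the 250 bases before the start. They lie at chr7:97872409-97872658 (minus strand), chr1:119711684-119711933 (plus strand) and chr9:2621537-2621786 (plus strand). Capitals mark a match to the motif.
ASNS: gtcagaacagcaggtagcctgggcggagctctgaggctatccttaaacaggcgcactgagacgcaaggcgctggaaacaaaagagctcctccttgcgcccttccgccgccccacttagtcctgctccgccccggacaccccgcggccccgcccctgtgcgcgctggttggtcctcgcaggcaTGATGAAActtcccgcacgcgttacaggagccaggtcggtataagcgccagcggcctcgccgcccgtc
PHGDH: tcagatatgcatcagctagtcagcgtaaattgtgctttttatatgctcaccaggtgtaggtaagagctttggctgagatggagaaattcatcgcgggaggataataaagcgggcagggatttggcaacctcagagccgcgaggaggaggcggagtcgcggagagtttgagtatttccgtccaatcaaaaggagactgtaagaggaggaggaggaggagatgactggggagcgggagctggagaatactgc
VLDLR: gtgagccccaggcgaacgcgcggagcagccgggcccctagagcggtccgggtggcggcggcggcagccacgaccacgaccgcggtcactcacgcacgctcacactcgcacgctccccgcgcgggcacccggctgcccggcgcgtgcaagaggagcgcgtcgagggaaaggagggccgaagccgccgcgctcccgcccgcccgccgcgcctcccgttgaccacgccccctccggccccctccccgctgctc
ASNS held 1 match, whose first base lay at position -68 from the start. No match was in the PHGDH and VLDLR windows. For comparison, stretches of 30 bases around the match are given for 3 genes called at 48 h in different directions (GOT1, SLC38A1 and JDP2), for SLC7A1, called between 4 and 16 h, and for 2 known ATF4 targets with no call (CHAC1 and AARS1). Each is written on its gene's strand, so TTNCATCA is the motif on the opposite strand.
GOT1: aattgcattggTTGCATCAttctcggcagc
SLC38A1: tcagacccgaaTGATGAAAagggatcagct
JDP2: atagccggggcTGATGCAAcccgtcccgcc
SLC7A1: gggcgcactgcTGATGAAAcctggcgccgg
CHAC1: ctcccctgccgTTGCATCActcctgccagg
AARS1: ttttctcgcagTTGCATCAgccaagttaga
These stretches lie at chr10:99430804-99430833 (GOT1), chr12:46266502-46266531 (SLC38A1), chr14:75427995-75428024 (JDP2), chr13:29595663-29595692 (SLC7A1), chr15:40953251-40953280 (CHAC1) and chr16:70289675-70289704 (AARS1).

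Arrays were alike in brightness, with medians between 7.59 and 7.63 on the log2 signal scale, on which 1 unit is a doubling. Luminal markers were bright on all arrays (KRT18 13.69 to 13.92, GATA3 13.61 to 14.52, FOXA1 11.64 to 12.51), and the probe sets of ESR1 and PGR, which this line is known to lack, read 8.23 to 8.62 and 7.31 to 7.60. Replicate 2 of DHT 16 h stood apart in RNA quality: its GAPDH 3′ control probe set exceeded the 5′ one by 0.817 log2 units, against 0.185 to 0.349 on the other 7 arrays, and its ACTB difference was 1.521 against 0.203 to 0.945. Calls at 16 h that were lost without it are named with their values below.

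Most of these genes did not pass the test at any time, and those that did were called at 16 or 48 h, in both directions. A gene was called when its limma p, adjusted by Benjamini-Hochberg over all 19775 genes, was below 0.05. At 4 h none of the 36 was called, and 5 had an unadjusted p below 0.05, where 0.177% of all genes were called (0.106% higher and 0.0708% lower). At 16 h 5 were called higher and 1 lower, against 6.85% of all genes (2.55% higher and 4.3% lower). At 48 h 7 were called higher and 5 lower, 33.3% of the 36, against 9.51% of all genes (3.13% higher and 6.38% lower). Bright genes are called more often, and 32 of the 36 were at or above the median signal: among the 9888 genes that bright, 11.2% were called at 16 h, where 5 of the 32 were, and 15.1% at 48 h, where 11 of the 32 were.

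Between the DHT times, 3 genes were higher and 3 lower at 16 h than at 4 h, where 3.05% of all genes were called (1.28% higher and 1.77% lower). Only VLDLR, of the 36, was called between 16 and 48 h, higher, against 0.829% of all genes (0.349% higher and 0.48% lower). Taking the 3 DHT times jointly against vehicle, limma's moderated F test called 11 of the 36 and 8.9% of all genes. With each array centred on housekeeping genes, the calls over all genes split as 33 higher and 12 lower at 4 h, 208 and 499 between 4 and 16 h, and 62 and 165 between 16 and 48 h. The median log2 change of the 36 was 0.04 at 4 h, 0.06 at 16 h and 0.02 at 48 h, beside 0.00, 0.02 and 0.01 for all genes.

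**Figure D1:**
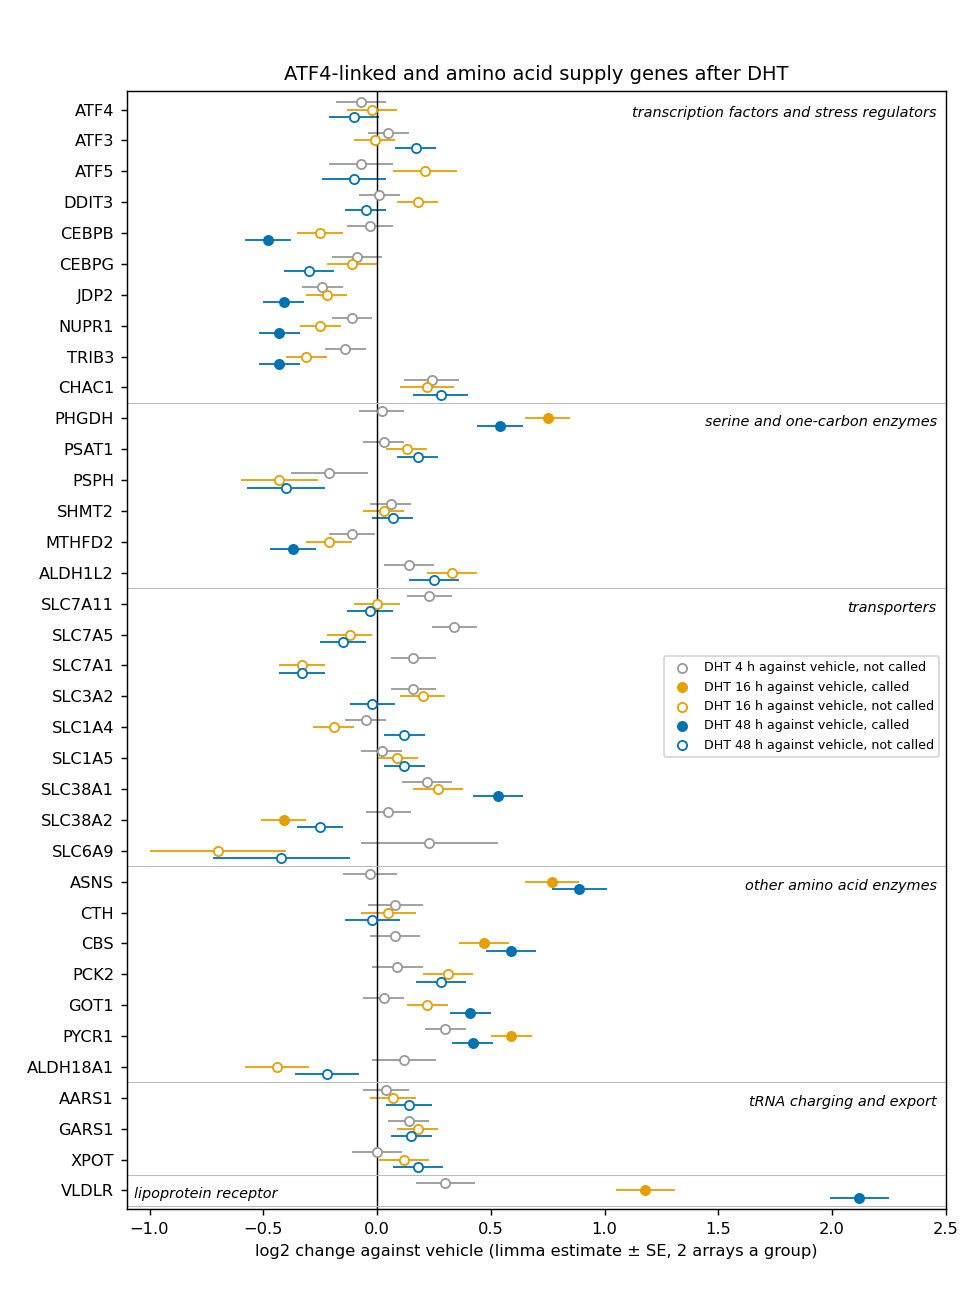
Log2 change against vehicle of the 36 genes (x axis, limma estimate ± SE, 2 arrays a group) after DHT for 4 h (grey), 16 h (orange) and 48 h (blue), grouped by role; filled points passed the test. Filled points to the right are mostly enzymes and VLDLR, which reached 2.12 at 48 h, and 4 of the 5 filled points to the left at 48 h are stress regulators.

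The transcription factors and stress regulators had calls only in the lower direction. None of the 10 was called higher at any time, and 4 of the 10 were called lower at 48 h. Of the 10 estimates at 48 h, 8 were below 0, with a median of -0.20. Of all genes, 6.38% were called lower and 3.13% higher at 48 h, and 9328 of 19775 estimates were below 0. ATF4 itself read 13.18 and 13.23 on the vehicle arrays, 12.98 and 13.27 at 4 h, 13.11 and 13.26 at 16 h, and 13.12 and 13.08 at 48 h. Its arrays overlapped between vehicle and 4 h and 16 h, and its largest difference, -0.10 ± 0.11 (SE) at 48 h, was not called (adjusted p = 0.669, limma).

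CEBPB, a leucine zipper factor that pairs with ATF4, read 11.61 and 11.74 in vehicle, 11.66 and 11.63 at 4 h, 11.35 and 11.49 at 16 h, and 11.14 and 11.25 at 48 h. Both 48 h arrays lay below all others, and CEBPB fell by 0.48 ± 0.10 on the log2 scale at 48 h (limma adjusted p = 0.00923). TRIB3, a pseudokinase induced by ATF4 that also curbs it, read 13.24 on both vehicle arrays, 13.15 and 13.05 at 4 h, 12.84 and 13.01 at 16 h, and 12.80 and 12.82 at 48 h. Vehicle was above every DHT array, and the fall at 48 h was 0.43 ± 0.09 (limma adjusted p = 0.0143). The second probe set of TRIB3, with a mean of 11.04, gave -0.35 ± 0.21 at 48 h and was not called (limma adjusted p = 0.43). At 4 h it gave 0.12, against -0.14 for the probe set read here.

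NUPR1, a small stress-induced chromatin protein, read 12.33 and 12.40 in vehicle, 12.17 and 12.33 at 4 h, 12.09 and 12.14 at 16 h, and 11.94 and 11.93 at 48 h. It fell by 0.43 ± 0.09 at 48 h (limma adjusted p = 0.0138), the 48 h arrays being the lowest. JDP2, a leucine zipper repressor of AP-1 and ATF sites, read 10.86 and 10.82 in vehicle, 10.63 and 10.56 at 4 h, 10.64 and 10.61 at 16 h, and 10.37 and 10.49 at 48 h. All 6 DHT arrays were below vehicle, and the fall at 48 h was 0.41 ± 0.09 (limma adjusted p = 0.0144), while its dimmer second probe set gave 0.06 and was not called.

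The calls of these 4 genes depended on single arrays, while their estimates moved little. In the 8 fits that each left out 1 array, CEBPB lost its call without vehicle replicate 2 (-0.41, adjusted p = 0.0667) and without DHT 48 h replicate 1 (-0.43, adjusted p = 0.0981). JDP2 lost it without either vehicle array (-0.39 and -0.43) or DHT 48 h replicate 1 (-0.35), with limma adjusted p up to 0.137. NUPR1 and TRIB3 lost it without any of the 4 arrays of the comparison, with log2 changes from -0.46 to -0.39 and from -0.44 to -0.42 and adjusted p up to 0.0873 and 0.102. Leaving out an array leaves its group with 1, which is then assumed to vary like the other groups.

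The remaining 6 regulators were not called at any time. ATF3, a stress-induced repressor, averaged 8.77 in vehicle and 8.94 at 48 h. Its other probe sets gave -0.20 and 0.10 at 48 h and were not called. ATF5, a relative of ATF4, averaged 9.89 in vehicle, 10.10 at 16 h and 9.79 at 48 h, and DDIT3, the death-linked factor also known as CHOP, 9.26, 9.44 and 9.22. CEBPG, the usual dimer partner of ATF4, averaged 9.51 in vehicle and 9.21 at 48 h, a difference of -0.30 ± 0.11 that missed the threshold (limma adjusted p = 0.145). CHAC1, which degrades glutathione and is among the most responsive ATF4 targets, was the one regulator above vehicle at each time, by 0.24, 0.22 and 0.28, and passed the test at none (limma adjusted p = 0.209 to 0.701).

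Of the serine and one-carbon enzymes, PHGDH rose and MTHFD2 fell, while the other 4 were not called. PHGDH, phosphoglycerate dehydrogenase, opens the pathway from a glycolytic intermediate to serine. It read 11.09 and 11.08 in vehicle, 11.14 and 11.06 at 4 h, 11.91 and 11.76 at 16 h, and 11.57 and 11.67 at 48 h. The 4 later arrays lay above all 4 earlier ones, and the rise was 0.75 ± 0.10 at 16 h, a 1.68-fold change (limma adjusted p = 0.000707), and 0.54 ± 0.10 at 48 h, 1.45-fold (adjusted p = 0.00417). All 8 fits that left out an array kept both calls, and without DHT 16 h replicate 2 the rise at 16 h was 0.83.

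The next 2 steps of the same pathway did not follow it past the threshold. PSAT1, the phosphoserine aminotransferase, averaged 8.47 in vehicle, 8.51 at 4 h, 8.61 at 16 h and 8.66 at 48 h, with a difference of 0.18 ± 0.09 at 48 h (limma adjusted p = 0.282). PSPH, the phosphatase that releases serine, had widely spread vehicle arrays (9.19 and 8.73) and averaged 8.55 at 48 h, a difference of -0.40 ± 0.17 (limma adjusted p = 0.189). Whether either differed from PHGDH in its change was not tested.

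Of the 3 mitochondrial folate enzymes, MTHFD2 was called lower at 48 h and the other two were not called. MTHFD2, which oxidises the one-carbon unit in mitochondria, read 12.69 and 12.57 in vehicle, 12.55 and 12.49 at 4 h, 12.37 and 12.47 at 16 h, and 12.19 and 12.34 at 48 h. The 48 h arrays were below both vehicle arrays, with a fall of 0.37 ± 0.10 (limma adjusted p = 0.0382). That call was among the least stable: it was lost without either array of vehicle, 4 h or 48 h, with log2 changes from -0.44 to -0.29 and adjusted p up to 0.277, and with the replicate number as a block. Its other probe set gave -0.12 at 48 h and was not called (limma adjusted p = 0.767), and the mean of both gave -0.24 (adjusted p = 0.18). SHMT2, which splits serine into glycine and a one-carbon unit, stayed between group means of 11.95 and 12.02. ALDH1L2, which burns mitochondrial formyl-folate, averaged 7.57 in vehicle, 7.71 at 4 h, 7.89 at 16 h and 7.81 at 48 h. It was above vehicle at each time. Its 16 h arrays read 7.75 and 8.04, the higher being the array that stood apart. Its difference at 16 h was not called (0.33 ± 0.11, limma adjusted p = 0.108), other than in the fit without DHT 16 h replicate 1.

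Transporters differed in direction and in time. At 4 h 8 of the 9 estimates were above 0, with a median of 0.16 and none called, beside 10072 of 19775 estimates above 0 for all genes. At 16 h 1 was called lower, and at 48 h another was called higher. Of all genes, 4.3% were called lower at 16 h and 3.13% higher at 48 h. SLC38A1, a sodium-coupled importer of glutamine and other small neutral amino acids, read 12.47 and 12.73 in vehicle, 12.90 and 12.74 at 4 h, 12.81 and 12.92 at 16 h, and 13.05 and 13.20 at 48 h. Both 48 h arrays were above all others, and the rise was 0.53 ± 0.11, 1.44-fold (limma adjusted p = 0.0129). The call was lost without vehicle replicate 1 (0.40, adjusted p = 0.137) or DHT 48 h replicate 2 (0.45, adjusted p = 0.0975). Of its 3 other probe sets, 1 was called at both 16 h (0.57) and 48 h (0.92), and the other two gave 0.30 and 0.06 at 48 h and were called at neither time.

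SLC38A2 belongs to the same family and is the one known to be raised by amino acid shortage. It read 13.14 and 13.28 in vehicle, 13.27 and 13.25 at 4 h, 12.91 and 12.69 at 16 h, and 12.92 and 12.99 at 48 h. All 4 later arrays were below the earlier ones, with a fall of 0.41 ± 0.10 at 16 h (limma adjusted p = 0.0335) and a difference of -0.25 ± 0.10 at 48 h that was not called (adjusted p = 0.167). The difference between 16 and 4 h, -0.46 ± 0.10, was called too (adjusted p = 0.0347). Its other probe sets had the same sign without a call, at -0.43 and -0.29 for 16 h against vehicle and -0.47 and -0.28 against 4 h. Without DHT 16 h replicate 2, the array that stood apart, both calls were lost, at -0.30 (adjusted p = 0.187) and -0.35 (adjusted p = 0.202). Against vehicle only the fit without DHT 16 h replicate 1 kept the call, and the other 6 had adjusted p from 0.0532 to 0.154. Between 16 and 4 h it was also lost without either array of 4 h (adjusted p = 0.244 and 0.187) or of 48 h (adjusted p = 0.0604 for each), and with the replicate number as a block.

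SLC7A5 and SLC7A1 were highest at 4 h and lower later. SLC7A5 is the light chain of the exchanger LAT1, which brings in leucine and other large neutral amino acids. Its arrays read 10.62 and 10.65 in vehicle, 10.94 and 11.01 at 4 h, 10.61 and 10.42 at 16 h, and 10.42 and 10.55 at 48 h. The 4 h arrays stood above the other 6, although the difference from vehicle, 0.34 ± 0.10, was not called (limma adjusted p = 0.373, unadjusted p = 0.00541), and from 4 to 16 h it fell by 0.46 ± 0.10 (adjusted p = 0.029). Without DHT 16 h replicate 2 the later difference was -0.37 and no longer called (adjusted p = 0.164), nor was it without either 4 h array (-0.50 and -0.43, adjusted p = 0.155 and 0.216).

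SLC7A1, the importer of arginine and lysine, read 11.83 and 11.67 in vehicle, 11.88 and 11.95 at 4 h, 11.38 and 11.47 at 16 h, and 11.38 and 11.47 at 48 h. From 4 to 16 h it fell by 0.49 ± 0.10 (limma adjusted p = 0.0204), and the differences from vehicle, -0.33 ± 0.10 at both 16 h and 48 h, missed the threshold (adjusted p = 0.0729 and 0.060). The call was lost without either 4 h array (-0.53 and -0.45) or DHT 16 h replicate 1 (-0.44), with adjusted p up to 0.171, and was kept without DHT 16 h replicate 2 (-0.53, adjusted p = 0.0459). Its 4 other probe sets had the same sign from 4 to 16 h, from -1.54 to -0.12, and none was called. The dimmest of them had the opposite sign to the probe set read here at 48 h, at 0.44 against vehicle, and was not called either (limma adjusted p = 0.0875).

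The other 5 transporters were not called in any comparison. SLC7A11, the cystine importer, averaged 8.83 in vehicle, 9.07 at 4 h and 8.81 at 48 h. SLC3A2, the heavy chain shared by the SLC7 exchangers, went from 10.69 in vehicle to 10.89 at 16 h and 10.67 at 48 h. SLC1A4 and SLC1A5, exchangers of small neutral amino acids and of glutamine, changed by -0.19 to 0.12 and by 0.02 to 0.12 against vehicle. The dimmest other probe set of SLC1A4 gave 0.36 at 16 h, against -0.19 here, and was not called (limma adjusted p = 0.106). The remaining ones gave -0.13 to -0.05 at 16 h. SLC6A9, the glycine transporter GLYT1, had arrays far apart at 16 h (8.55, and 7.35 on the array that stood apart), so its difference of -0.70 ± 0.30 was not called (limma adjusted p = 0.227).

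Among the other amino acid enzymes, 4 of 7 were called higher and none lower at 48 h, with a median of 0.41. Of all genes, 3.13% were called higher and 6.38% lower at 48 h, and the median was 0.01. ASNS, asparagine synthetase, is the textbook ATF4 target and moves nitrogen from glutamine to aspartate. It read 9.35 and 9.39 in vehicle, 9.30 and 9.37 at 4 h, 10.24 and 10.05 at 16 h, and 10.09 and 10.43 at 48 h. The 4 arrays of 16 and 48 h lay above the other 4 with no overlap, a rise of 0.77 ± 0.12 at 16 h (1.71-fold, limma adjusted p = 0.00275) and 0.89 ± 0.12 at 48 h (1.86-fold, adjusted p = 0.000687). Both calls were kept in all 8 fits that left out an array, with 0.87 at 16 h without DHT 16 h replicate 2. From 4 to 16 h it rose by 0.81 ± 0.12 (adjusted p = 0.00402), a call lost without DHT 4 h replicate 1 (0.77, adjusted p = 0.0588). The probe set read here is of the _s_at kind, which several transcripts may share, and the only other one for ASNS was dim, at a mean of 4.73, with changes of 0.12 and 0.26 that were not called.

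PYCR1, which makes the last step to proline, read 10.99 and 10.98 in vehicle, 11.26 and 11.31 at 4 h, 11.55 and 11.62 at 16 h, and 11.49 and 11.32 at 48 h. All DHT arrays were above vehicle, and it rose by 0.59 ± 0.09 at 16 h (1.51-fold, limma adjusted p = 0.00305) and by 0.42 ± 0.09 at 48 h (adjusted p = 0.0159). The call at 16 h was kept in all 8 fits that left out an array (0.56 without DHT 16 h replicate 2), while that at 48 h was lost without either vehicle array (0.42 and 0.41) or DHT 48 h replicate 1 (0.33), with adjusted p up to 0.157. ALDH18A1, which opens the same route from glutamate, moved the other way without a call, from 11.61 in vehicle to 11.17 at 16 h (-0.44 ± 0.14, limma adjusted p = 0.0934). Its 16 h arrays read 11.43 and 10.92, the lower being the array that stood apart, and it was called in the fit without DHT 16 h replicate 1.

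CBS, cystathionine beta-synthase, joins serine to homocysteine on the way to cysteine. It read 11.61 and 11.83 in vehicle, 11.70 and 11.91 at 4 h, 12.27 and 12.13 at 16 h, and 12.31 and 12.32 at 48 h. Every 16 h and 48 h array was above every earlier one, with rises of 0.47 ± 0.11 at 16 h (limma adjusted p = 0.0254) and 0.59 ± 0.11 at 48 h (1.51-fold, adjusted p = 0.00568). The rise at 16 h was 0.55 without DHT 16 h replicate 2 (limma adjusted p = 0.04). A second probe set for CBS was called at both times, at 0.42 and 0.56, and the remaining one, at 0.20 and 0.30, was not. The call at 16 h was lost without vehicle replicate 1 (0.37, adjusted p = 0.226) or DHT 16 h replicate 1 (0.40, adjusted p = 0.096), and that at 48 h without vehicle replicate 1 (0.48, adjusted p = 0.0719) or DHT 48 h replicate 1 (0.60, adjusted p = 0.0505). CTH, the enzyme after CBS, was dim and flat, with group means of 6.73 to 6.83.

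GOT1, the cytosolic aspartate aminotransferase, read 11.05 and 11.15 in vehicle, 11.15 and 11.11 at 4 h, 11.31 and 11.34 at 16 h, and 11.49 and 11.53 at 48 h. It rose by 0.41 ± 0.09 at 48 h (1.33-fold, limma adjusted p = 0.013), with both 48 h arrays above all others. That call was lost without vehicle replicate 1 (0.36) or either 48 h array (0.43 and 0.39), with adjusted p up to 0.115. PCK2, the mitochondrial phosphoenolpyruvate carboxykinase, averaged 10.41 in vehicle, 10.72 at 16 h and 10.69 at 48 h, and was not called (limma adjusted p = 0.143 and 0.166).

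The 3 genes of tRNA charging and export were not called in any comparison. AARS1 and GARS1, the alanyl- and glycyl-tRNA synthetases, averaged 12.12 and 12.32 in vehicle and 12.26 and 12.47 at 48 h. XPOT, the nuclear exporter of tRNA, averaged 10.82 in vehicle and 10.99 at 48 h, although its second probe set gave 0.65 at 16 h and was called when all probe sets were tested together, so the readings of XPOT disagree.

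VLDLR had the largest change of the 36. It encodes the very low density lipoprotein receptor, whose induction by ATF4 under stress is known from other cells, and which takes up triglyceride-rich lipoprotein. Its arrays read 7.27 and 6.84 in vehicle, 7.33 and 7.38 at 4 h, 8.27 and 8.20 at 16 h, and 9.26 and 9.10 at 48 h. Each later time was above the one before with no overlap, and the rise against vehicle was 1.18 ± 0.13 at 16 h (2.26-fold, limma adjusted p = 0.000272) and 2.12 ± 0.13 at 48 h (4.35-fold, adjusted p = 1.56e-06). Both calls were kept in all 8 fits that left out an array, and the rise at 16 h was 1.21 without DHT 16 h replicate 2. Its only probe set is of the _s_at kind, which several transcripts may share. The table gives no measure of background, so whether the vehicle reading was above it was not tested. Both vehicle readings were below those of PGR, which this line is known to lack (7.31 to 7.60). A reading at background would make these VLDLR folds lower bounds. Between times it rose by 0.88 ± 0.13 from 4 to 16 h (adjusted p = 0.00369), a call lost without DHT 4 h replicate 1 (0.86, adjusted p = 0.053). From 16 to 48 h it rose by 0.95 ± 0.13 (adjusted p = 0.00583), and this was lost without either 48 h array (0.87 and 1.03, adjusted p = 0.11 and 0.053).

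**Figure D2:**
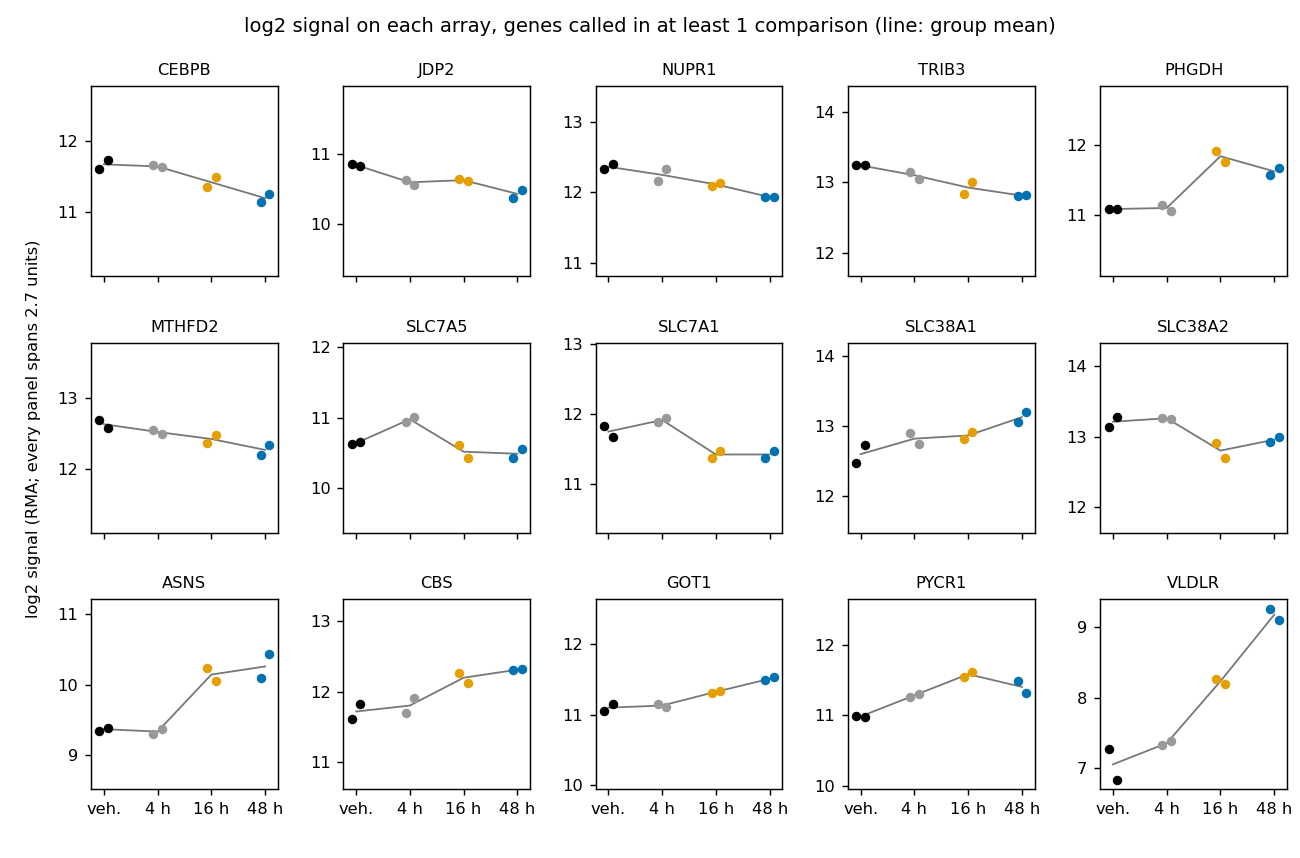
Log2 signal on each array (y axis, every panel spanning 2.7 units) for the 15 genes called in at least 1 of the 5 comparisons, by group from vehicle to DHT 48 h (x axis); each point is 1 array and the line joins group means. ASNS and PHGDH step up between 4 and 16 h, VLDLR climbs to 9.26 and 9.10 at 48 h, and CEBPB, JDP2, NUPR1 and TRIB3 end at their lowest at 48 h.

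By time, 5 genes were called higher at both 16 and 48 h (VLDLR, ASNS, PHGDH, PYCR1 and CBS), and none was called lower at both. GOT1 and SLC38A1 were called higher, and CEBPB, JDP2, NUPR1, TRIB3 and MTHFD2 lower, at 48 h alone by the probe sets read here. SLC38A2 was called lower at 16 h alone. Whether their signals differed between the times is told by the test of 48 against 16 h, which called none of these 8. SLC7A5 and SLC7A1 were called between 4 and 16 h only. In all, 13 of the 36 were called against vehicle, 15 in any of the 5 comparisons and 21 in none. The shares of all genes called in at least 1 of several comparisons, or at both 16 and 48 h, were not computed. The counts of these kinds therefore have none beside them. At 16 h alone 2.55% of all genes were called higher and 4.3% lower, and at 48 h alone 3.13% and 6.38%, whether or not called at the other time. The F test, which takes the 3 comparisons with vehicle jointly, called 11 of the 36 and 8.9% of all genes. Without DHT 16 h replicate 2 the count at 16 h was 5 higher and none lower. The count of 12 at 48 h was 4 without vehicle replicate 1, 6 without vehicle replicate 2, 4 without DHT 48 h replicate 1 and 7 without DHT 48 h replicate 2. In the same 4 fits the 1881 calls at 48 h over all genes became 844, 1435, 834 and 1325.

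Sequence was set beside these values. The motif TGATGNAA was in 13 of the 51 windows of these genes (25.5%), and in 3.62% of all 35116 windows. By gene, 13 of the 30 with an entry had it (43.3%), against 3.61% of 15384 tested genes with an entry, which describes a list drawn in part from known ATF4 targets. The related cyclic AMP response element TGACGTCA, which reads the same on both strands and whose letters cannot match the first motif at the same place, was in none of the 51 windows and in 1.85% of all. NUPR1, PSPH, SHMT2, ALDH1L2, SLC7A11 and PYCR1 had no entry.

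Genes called in either direction stood both with and without the motif. Of the 13 with it, 3 were called higher against vehicle (ASNS, GOT1 and SLC38A1), 1 lower (JDP2) and 9 in neither direction, ATF3, CEBPG, CHAC1, SLC7A1, SLC3A2, SLC1A4, SLC1A5, AARS1 and GARS1. Of the 17 without it, 3 were called higher (PHGDH, CBS and VLDLR), 4 lower (CEBPB, TRIB3, MTHFD2 and SLC38A2) and 10 neither. The median change at 48 h was 0.14 with the motif and -0.10 without, and at 16 h 0.09 and 0.05. For all genes the medians were 0.01 at 48 h and 0.02 at 16 h. Of all genes, 2.55% were called higher and 4.3% lower at 16 h, and 3.13% and 6.38% at 48 h. Counts and medians were not computed for all genes with and without the motif, and the difference between the sets was not tested. The ASNS, SLC38A1 and SLC7A1 stretches printed above carry the same 8 letters, TGATGAAA, on the gene's strand, and those 3 genes changed by 0.89, 0.53 and -0.33 at 48 h. JDP2 holds TGATGCAA, and GOT1, CHAC1 and AARS1 hold the same letters on the opposite strand; they changed by -0.41, 0.41, 0.28 and 0.14.

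**Figure D3:**
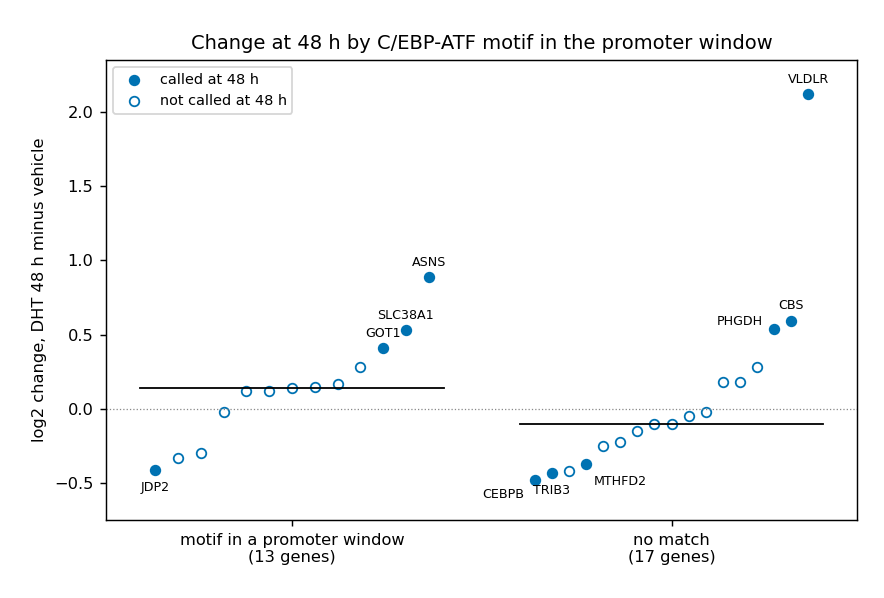
Log2 change at 48 h against vehicle (y axis) for the 13 genes with the motif TGATGNAA in a promoter window and the 17 with no match (x axis, genes ordered by change within each set); filled points passed the test and horizontal lines are medians, 0.14 and -0.10. Both sets hold called genes on either side of 0, and VLDLR, at 2.12, is in the set with no match.

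The surrounding pathway was read from a second list of 100 genes, of which 91 were measured. It had no call at 4 h, 11 higher and 8 lower at 16 h (20.9%), and 14 higher and 6 lower at 48 h (22.0%), with medians of 0.02 and 0.03. Beside these stand 6.85% and 9.51% of all genes, or 11.2% and 15.1% of the brighter ones, and the counts in its sublists below are read against the same shares. In the fit without DHT 16 h replicate 2, an alternative added for this list after seeing the data, 4 higher and 6 lower were called at 16 h, all 10 of them among the 19. GDF15, SESN2, EIF2AK3, FARSA, DLD, PYCR3, ASS1, ARG2, SLC38A9 and AHCY kept their calls there. Among the kinases of eIF2, EIF2AK4 (GCN2, the sensor of uncharged tRNA) rose by 0.58 ± 0.15 at 16 h and 0.85 ± 0.15 at 48 h (limma adjusted p = 0.0363 and 0.00329). EIF2AK3 (PERK, the sensor in the endoplasmic reticulum) fell by 0.53 ± 0.12 and 0.45 ± 0.12 (adjusted p = 0.0243 and 0.0436). The other 7 genes of that sublist, which also holds eIF2 alpha and its phosphatase subunits, were not called at either time. EIF2AK4 kept its call at 48 h in all 8 fits that left out an array, and EIF2AK3 kept its own in 3 of the 8. Without DHT 16 h replicate 2 the values at 16 h were 0.59 for EIF2AK4, no longer called (limma adjusted p = 0.111), and -0.65 for EIF2AK3 (adjusted p = 0.0258).

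Other stress genes linked to ATF4 went both ways. GDF15, a secreted stress cytokine, read 9.32 and 9.20 in vehicle, 9.21 and 9.29 at 4 h, 7.33 and 7.45 at 16 h, and 7.66 on both 48 h arrays, differing from vehicle by -1.87 ± 0.09 and -1.60 ± 0.09 (limma adjusted p = 5.58e-07 and 1.32e-06). SESN2, which restrains mTORC1 when leucine is short, fell by 0.52 and 0.66. STC2, a secreted glycoprotein induced by ATF4, rose by 0.58 at 16 h (not called without DHT 16 h replicate 2, at 0.62 and adjusted p = 0.079) and by 0.99 at 48 h, and VEGFA, the vascular growth factor, rose by 1.01 at 48 h. DDIT4 and EIF4EBP1, both brakes on growth through mTORC1 signalling, rose by 0.72 and 0.43 at 48 h; they were outside the rule for naming genes and were chosen after their values were seen.

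Of 15 other tRNA synthetases, 1 was called higher at 16 h and 4 at 48 h, none was called lower, and 12 had an estimate above 0 at 48 h. The 6.7% called at 16 h is near the 6.85% of all genes, and the 26.7% at 48 h stands beside 9.51%. FARSA, a subunit of the phenylalanyl enzyme, rose by 0.58 at 16 h and 0.42 at 48 h, and IARS1 and LARS1, the isoleucyl and leucyl enzymes, rose by 0.46 each at 48 h. FARSB, the partner subunit of FARSA, rose by 0.39 at 48 h and was likewise named after its value was seen. Folate and glycine enzymes had no gene called higher: MTHFD1 fell by 0.39 and DLD, shared by the glycine cleavage system and pyruvate dehydrogenase, by 0.61 at 16 h, and none of the 12 was called at 48 h. In the 8 fits that left out an array, DLD kept its call in 8, MTHFD1 and LARS1 in 2, IARS1 in 4, and FARSB in 5. MTHFD1 was at -0.38 without DHT 16 h replicate 2 (limma adjusted p = 0.137).

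Arginine and proline genes held some of the largest changes. Their sublist of 12 measured genes also holds glutamine, glutamate, transamination and branched-chain enzymes, and its calls went both ways. At 16 h 3 of the 12 were called higher and 1 lower, and at 48 h 3 higher and 2 lower. ASL and PRODH, of the same sublist, averaged 9.67 and 12.18 in vehicle and 9.57 and 12.16 at 48 h, without a call. ASS1, which joins citrulline to aspartate on the way to arginine, read 11.71 and 11.70 in vehicle and 12.65 and 12.52 at 16 h, and rose by 0.88 ± 0.09 at 16 h and 0.52 ± 0.09 at 48 h (limma adjusted p = 0.00017 and 0.00366). ARG2, the mitochondrial arginase that breaks arginine down, fell by 0.87 ± 0.11 and 1.43 ± 0.11 (adjusted p = 0.000732 and 1.02e-05), from 10.15 and 10.28 in vehicle to 8.67 and 8.91 at 48 h. PYCR3, a cytosolic relative of PYCR1, rose by 0.87 and 0.52, while OAT, the ornithine aminotransferase, fell by 0.52 at 48 h. BCAT2, the mitochondrial branched-chain aminotransferase, rose by 0.50 and 0.48 and was named after its values were seen; without DHT 16 h replicate 2 it was at 0.45 at 16 h and not called (limma adjusted p = 0.0743).

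Other transporters were mostly uncalled. SLC38A9, the lysosomal arginine sensor, fell by 0.59 and 0.56. SLC1A1, a glutamate importer, and SLC25A22, a mitochondrial glutamate carrier, had 0.35 and 0.36 at 16 h, calls that none of the 8 fits leaving out an array kept (limma adjusted p = 0.0413 and 0.0451 with all arrays; without DHT 16 h replicate 2 the values were 0.32 and 0.43, with 0.162 and 0.0505). In the methionine cycle that feeds CBS, AHCY, which releases homocysteine, rose by 0.60 ± 0.09 at 16 h and 1.06 ± 0.09 at 48 h (adjusted p = 0.00199 and 1.9e-05), and MAT2A, which makes S-adenosylmethionine, rose by 0.55 at 16 h. Of the glutathione genes, GGT1 rose by 0.42 and 0.48, and GCLM, the modifier subunit of the first synthetic step, fell by 0.50 at 16 h. AHCY kept both calls in all 8 fits that left out an array, MAT2A kept its call in 2 and GCLM in 3. Without DHT 16 h replicate 2 the values at 16 h were 0.38 for MAT2A, -0.33 for GCLM and 0.31 for GGT1, none of them called (limma adjusted p = 0.205, 0.197 and 0.149).

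**Figure D4:**
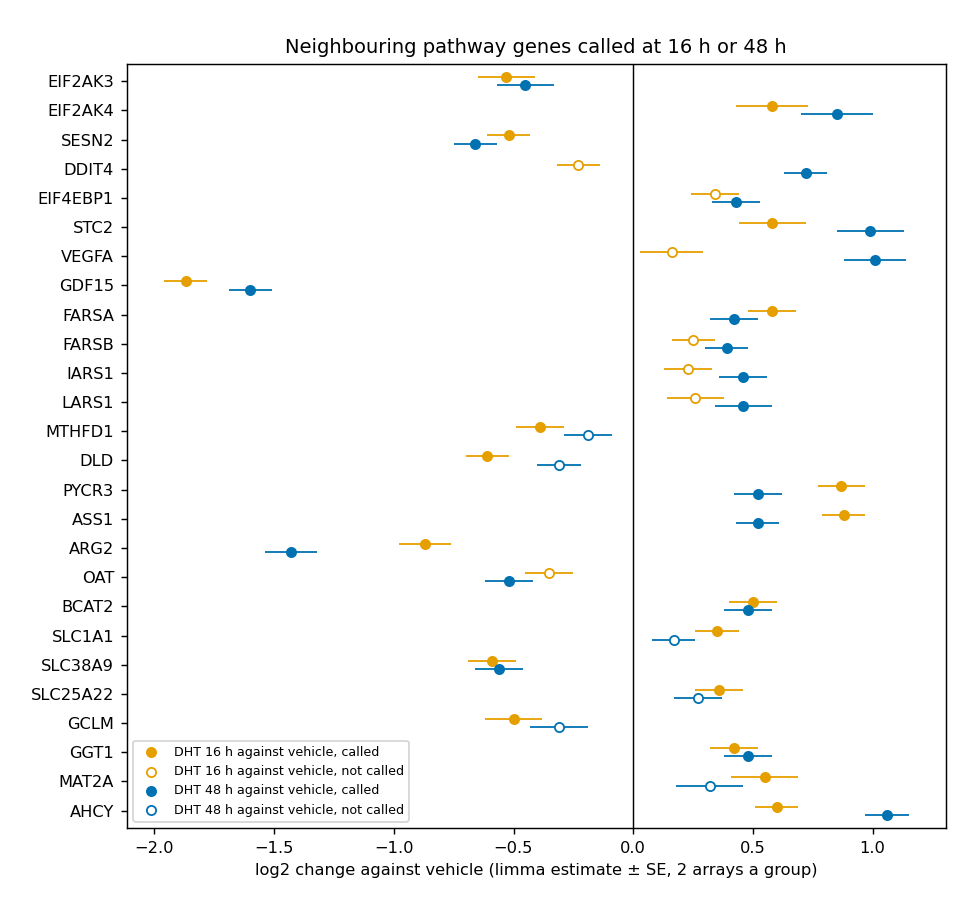
Log2 change against vehicle (x axis, limma estimate ± SE, 2 arrays a group) at 16 h (orange) and 48 h (blue) for the 26 genes of the surrounding pathway list called at either time; filled points passed the test. GDF15 and ARG2 lie furthest left, and AHCY, VEGFA and STC2 furthest right at 48 h.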

How the data were processed

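The authors' deposited table held log2 signals of 54675 probe sets on 8 Affymetrix expression arrays, normalised by RMA per the submitters' processing notes; the RMA version and a genome build are not given in the sources used here. Values ran from 3.68 to 15.57. Setting 62 control probe sets aside, 41091 carried 1 symbol, 1801 several and 11721 none, which left 19775 genes, each read by its brightest probe set. No dim gene was removed and nothing was normalised again. Of the 36 genes described, 20 had more than 1 probe set and 17 were read by one of the _s_at or _x_at kind, which can match several transcripts.

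limma 3.58.1 under R 4.3.3 fitted the 4 group means jointly over the 8 arrays (4 residual and 7.21 prior degrees of freedom), without the replicate number, and tests were two-sided. Deviations of same-numbered arrays from their group means correlated weakly across groups, in both directions (r from -0.244 to 0.196). With so few arrays a group, weak correlations cannot exclude a shared culture day or batch. Whether the numbers pair the arrays was therefore left unsettled. The procedure was run on simulated data with known changes, and the share of them it recovered is not given here. The genes, lists and motifs were chosen with earlier results of these data known. All measured genes of the main list are named; of the second list, up to 3 called genes with the largest change in each sublist and comparison with vehicle. Alternatives are given in the closing section.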

Additional observations from a re-analysis of the deposited data

Results flagged for a closer look

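The genes below differed between 2 DHT times, by the limma test of the difference itself (adjusted p below 0.05 over 19775 genes). No vehicle arrays are labelled with these times, so DHT and time in culture cannot be told apart in these differences. From 4 to 16 h the log2 difference was 0.88 for VLDLR, 0.81 for ASNS and 0.74 for PHGDH, with the 16 h arrays above the 4 h arrays in each case. Over the same interval it was -0.49 for SLC7A1, -0.46 for SLC7A5 and -0.46 for SLC38A2, with the 16 h arrays below the 4 h arrays. From 16 to 48 h it was 0.95 for VLDLR. SLC7A5 and SLC38A2 were not called without DHT 16 h replicate 2, the array whose GAPDH 3′ to 5′ difference was 0.817, and its part in these differences was not tested further. Groups of 2 arrays are too small for a check of single outlying arrays.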

How the results depend on the processing

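Of 25 calls over the 5 comparisons, 6 were kept under each of the 18 alternatives that could be run for them and 19 were lost under at least 1; over 436 recomputed values, 359 kept direction and call, 76 kept direction only and 1 reversed. Quantile normalisation, housekeeping centring, array weights and an intensity trend lost none of the 25. The count at 4 h was 0 in every setting run. Without _s_at and _x_at probe sets (26 of the genes left) the counts were 2 at 16 h, 6 at 48 h, 1 between 4 and 16 h, 0 between 16 and 48 h and 4 by the F test. In the same order, 894, 1261, 353, 110 and 1139 of the 17098 genes then left were called. With all arrays and probe sets these were 1354, 1881, 604, 164 and 1760 of 19775. ASNS, then read by its dim probe set, changed by -0.01 between 4 and 16 h. With all probe sets adjusted together, 3 were called between 4 and 16 h and 6 by the F test, beside 445 and 1659 of all 41091 probe sets. With the 2 groups alone, 3 were called between 4 and 16 h, beside 302 of all 19775 genes. Leaving out dim genes, VLDLR among them, gave 0 between 16 and 48 h, beside 202 of the 9888 genes left. Leaving out each array in turn, the counts ran from 4 to 8 at 16 h, 4 to 12 at 48 h, 1 to 7 between 4 and 16 h, 0 to 3 between 16 and 48 h, and 4 to 15 by the F test. With the replicate block they were 0, 6, 11, 5 and 1 in the 5 comparisons, beside 25, 1261, 1729, 546 and 135 of all 19775 genes. The F test called 8 with the block, against 11 without it, and over all genes 1578 against 1760. Of the 25 calls over the 5 comparisons, the block ended those of MTHFD2 at 48 h and SLC38A2 between 4 and 16 h and no other. Over all genes, calls ranged from 517 (without vehicle replicate 1) to 1654 (without DHT 16 h replicate 1) at 16 h, from 834 (without DHT 48 h replicate 1) to 2211 (without either 16 h array) at 48 h, and from 171 (without DHT 4 h replicate 1) to 1107 (without DHT 16 h replicate 1) between 4 and 16 h; those by the F test ran from 1034 to 2495. In the surrounding pathway, 10 genes were called at 16 h without DHT 16 h replicate 2, a fit added after seeing the data, against 19. Calls over all genes at 4 h ranged from 5 (without DHT 4 h replicate 2) to 74 (array weights) and those between 16 and 48 h from 37 (without DHT 48 h replicate 2) to 644 (without DHT 16 h replicate 1). The cause of these changes was not tested. No measure of background was given, and how far it limited the dim probe sets was not tested.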
